A study of Mus musculus with 6 samples.

Results

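The genes described here build the outer segment of the photoreceptor: the rim of its discs, the formation of new discs, the axoneme that runs along it, and the delivery of its proteins. They were chosen by name for these roles, and 10 of the 11339 genes with RPKM values are members. All 10 were found in the table. RNA was sequenced from whole mouse retina at P14, postnatal day 14, in 3 *Mll1KO* and 3 WT samples, with 2 retinas pooled for each. *Mll1KO* stands for floxed *Mll1* on both alleles (MLL1 fl/fl) together with *Chx10-Cre*, which drives Cre recombinase in retinal progenitor cells. WT mice are wild type, and both genotypes are labelled C57Bl6/J. Because the WT retinas are not described as carrying Cre or floxed alleles, effects of these and of the *Mll1* deletion cannot be told apart.

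The outer segment is a modified cilium filled with flat membrane discs that hold the proteins of light detection. New discs form at its base as folds of the plasma membrane, take on a sharply curved rim, and are shed at the tip, so that membrane proteins have to be delivered through the connecting cilium throughout life. Mutations in many of these genes cause retinitis pigmentosa, cone-rod dystrophy or macular dystrophy in people.

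The WT libraries, a to c, held 23836033, 19777205 and 19323512 reads as recovered from RPKM. For *Mll1KO*, again from a to c, the totals were 23348923, 19855963 and 17961097. Values are given in this order, a to c, throughout. The reads of a member in 1 library ranged from 1221 for *Fscn2* to 74856 for *Prph2*. RPKM divides the reads of a gene by its length and by the library total. Genotypes were compared with limma on the log2(RPKM + 1) scale, and a gene is called changed at a Benjamini-Hochberg adjusted p under 0.05 over all 11339 genes. *Mll1* itself, now named *Kmt2a*, was at 36.1, 36.9 and 34.6 RPKM in the WT samples and at 22.9, 20.4 and 22.3 RPKM in the *Mll1KO* samples. Each *Mll1KO* sample was below each WT sample, as the labels have it, at 60.9% of the WT mean (log2 fold change -0.69, limma adjusted p = 2.77e-05). This value covers all exons of the gene, deleted or not.

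In WT, the disc rim gene *Rom1* had the highest level per length of the 10 members, 1198.3 ± 38 RPKM (SD, n = 3), followed by *Prph2* at 897.8 ± 20.8 RPKM. *Reep6* came next at 497.4 ± 66 RPKM and *Cdhr1* at 330.7 ± 10.8 RPKM. Below these lay *Rp1*, *Tulp1*, *Prom1*, *Abca4* and *Rp1l1*, and the actin-bundling gene *Fscn2* was lowest at 29.6 ± 0.659 RPKM. No neighbours in this order overlapped among the WT samples. In *Mll1KO* the order was the same except at 2 places. *Tulp1* (226.3 to 234.2 RPKM) overlapped *Rp1* (222.0 to 235.2 RPKM), and *Abca4* (161.7 to 165.5 RPKM) overlapped *Prom1* (157.9 to 166.7 RPKM). The order depends on the gene length behind each RPKM. *Rp1* was scaled to 7508 bases, while its exons in GENCODE vM21 cover 12311 bases, and on the longer model its WT mean would be 151.7 RPKM, below *Tulp1* at 200.5 RPKM. *Prom1* was scaled to 4517 of 7175 annotated bases, and on the longer model its WT mean would be 99.2 RPKM, below *Abca4* at 131.2 RPKM. A length cancels in a ratio of genotypes and enters the fitted difference only through the 1 added to RPKM. For *Fscn2*, the lowest member, the difference was 0.35 with 0.1 added, 0.34 with 1 and 0.30 with 5.

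**Figure D1:**
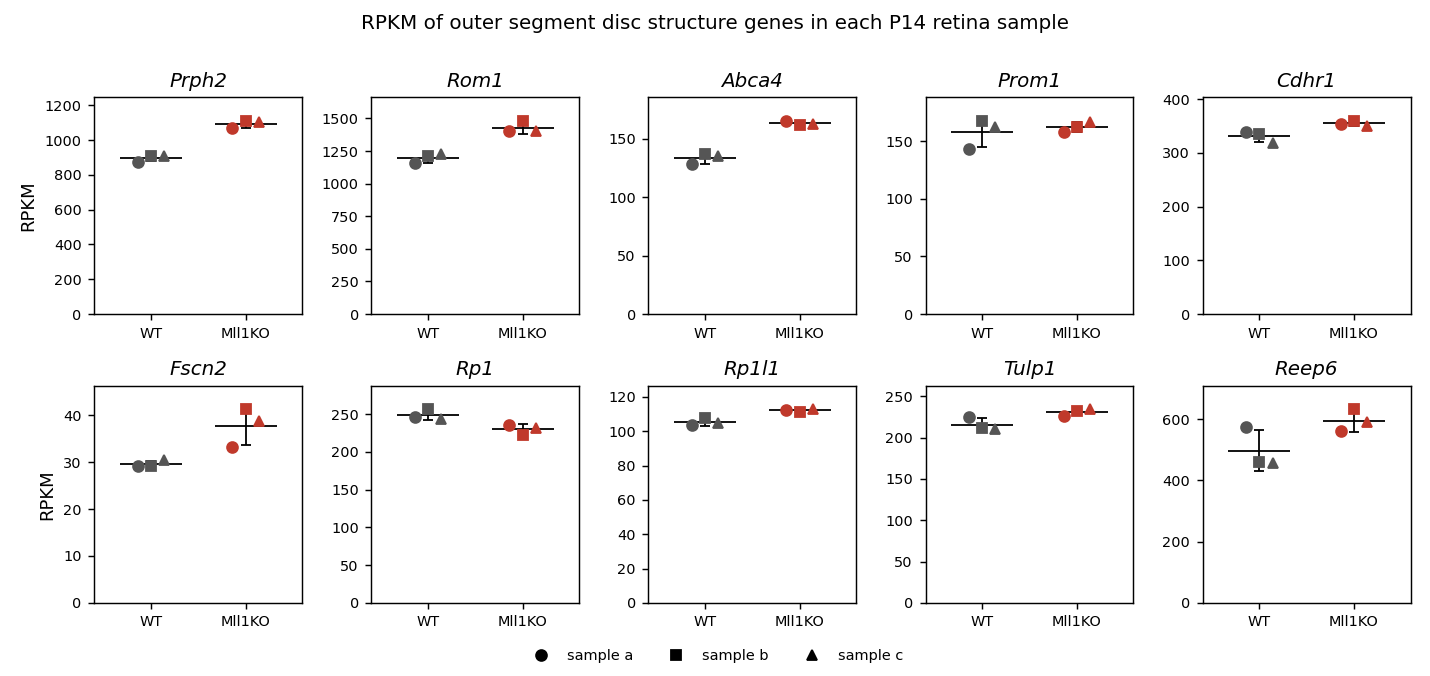
RPKM of the 10 members (vertical axes, each from 0) in the 3 WT samples (grey) and the 3 *Mll1KO* samples (red), with bars for the mean and SD of each genotype. *Prph2*, *Rom1*, *Abca4* and *Fscn2* lie higher in all *Mll1KO* samples and were called with libraries scaled to their total but not to rod genes. *Cdhr1*, *Rp1l1* and *Tulp1* also lie higher in all *Mll1KO* samples but were not called with the library total. *Rp1* lies lower and was called only when scaled to rod genes or by limma-voom. The genotypes overlap in *Prom1* and *Reep6*. Scaled to rod genes, *Prom1*, *Cdhr1*, *Rp1*, *Rp1l1* and *Tulp1* were called lower.

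The disc rim holds a pair of related tetraspanins and a lipid transporter. All 3 of these genes rose in *Mll1KO* when libraries were scaled to their total, and none was called when they were scaled to rod genes. *Prph2*, peripherin 2, bends the disc membrane into its rim. It lies at chr17:46910459-46924933 on the plus strand of GRCm38. Its level was 873.8, 908.9 and 910.7 RPKM in WT and 1067.9, 1111.8 and 1104.9 RPKM in *Mll1KO*. Every *Mll1KO* sample was above every WT sample, and the gap between genotypes was wider than the range within either. *Prph2* reached 122% of the WT mean, with a log2 fold change of 0.29 (95% interval 0.17 to 0.40, limma adjusted p = 0.0041).

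*Rom1*, whose protein joins peripherin 2 in mixed complexes, lies at chr19:8927391-8929356 on the minus strand. It was at 1156.2, 1208.6 and 1230.1 RPKM in WT and at 1403.5, 1484.0 and 1402.2 RPKM in *Mll1KO*. The genotypes did not overlap, and *Mll1KO* sample b stood highest. The log2 fold change was 0.25 (95% interval 0.12 to 0.39, limma adjusted p = 0.0125). That call was lost without *Mll1KO* sample b, where the log2 fold change was 0.23 and the limma adjusted p was 0.0521. The adjusted p ranged from 0.000444 to 0.827 over all alternatives. With any 1 sample left out, the log2 fold change was 0.23 to 0.27.

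*Abca4*, the flippase that moves retinoid-lipid adducts across the disc membrane, lies at chr3:122044443-122180123 on the plus strand. Its level was 128.2, 136.8 and 135.0 RPKM in WT and 165.5, 161.7 and 162.6 RPKM in *Mll1KO*. The *Mll1KO* samples were tightly grouped above all WT samples, with an SD of 2.01 RPKM. *Abca4* rose to this level with libraries scaled to their total (log2 fold change 0.29, 95% interval 0.20 to 0.38, limma adjusted p = 0.00093).

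The stoichiometry of the 2 tetraspanin transcripts was compared as the ratio of *Prph2* to *Rom1* RPKM, which does not depend on how libraries are scaled. The ratio was 0.756, 0.752 and 0.740 in WT and 0.761, 0.749 and 0.788 in *Mll1KO*. The genotypes overlapped, since *Mll1KO* sample b lay inside the WT range. The mean difference of the log2 ratio was 0.032 (exact permutation test, two-sided p = 0.3, where 3 against 3 samples allow no p below 0.1). It depended on single libraries, from 0.011 without *Mll1KO* sample c to 0.047 without *Mll1KO* sample b.

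Of the 3 genes of disc formation, 1 rose with libraries scaled to their total and the other 2 were not called. *Fscn2*, the retinal fascin that bundles actin filaments, lies at chr11:120361534-120368168 on the plus strand. It was at 29.2, 29.3 and 30.4 RPKM in WT and at 33.2, 41.3 and 38.8 RPKM in *Mll1KO*. All *Mll1KO* samples were higher than all WT samples but were more spread, with an SD of 4.17 RPKM against 0.659 RPKM. Its log2 fold change was 0.34 (95% interval 0.18 to 0.49, limma adjusted p = 0.00756).

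*Cdhr1* encodes the photoreceptor cadherin found at the edge of nascent discs. It lies at chr14:37077857-37098347 on the minus strand. Its level was 338.5, 335.3 and 318.4 RPKM in WT and 354.2, 360.0 and 349.8 RPKM in *Mll1KO*. The genotypes did not overlap, although WT sample a and *Mll1KO* sample c were close. The log2 fold change was 0.10, with a 95% interval of 0.00 to 0.20, and was not called (limma adjusted p = 0.127). *Prom1*, prominin 1, marks the evaginating membrane and interacts with the cadherin. It lies at chr5:43993620-44102032 on the minus strand, and 5.91% of its exon bases are shared with *Gm16401* on the plus strand. Whether the counting used strand is not given in the sources used here, so reads from these shared bases cannot be assigned with certainty. *Prom1* was at 143.3, 167.7 and 162.0 RPKM in WT and at 157.9, 162.5 and 166.7 RPKM in *Mll1KO*. The *Mll1KO* values all lay inside the WT range, and WT sample a was lowest. The log2 fold change was 0.04 (95% interval -0.09 to 0.18, limma adjusted p = 0.622). Without WT sample a it was -0.02 (adjusted p = 0.753, in a range of 0.00368 to 0.838 over all alternatives).

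*Rp1* and *Rp1l1* encode related doublecortin-domain proteins that bind the microtubules of the axoneme and help to align the discs along it. *Rp1* lies at chr1:3999557-4409241 on the minus strand, and *Rp1l1* at chr14:63992506-64035025 on the plus strand. *Rp1* was at 246.7, 256.5 and 243.1 RPKM in WT and at 235.2, 222.0 and 232.2 RPKM in *Mll1KO*. It was the only one of the 10 members with a lower mean in *Mll1KO* when libraries were scaled to their total, and no *Mll1KO* sample reached the lowest WT sample. The log2 fold change of -0.11 (95% interval -0.21 to -0.02) was not called (limma adjusted p = 0.087). On recovered reads, limma-voom gave the same size, -0.11, with an adjusted p of 0.0452, in a range of 3.36e-05 to 0.26 over all alternatives. *Rp1l1* was at 103.5, 107.9 and 105.1 RPKM in WT and at 112.6, 111.1 and 112.8 RPKM in *Mll1KO*. Here the *Mll1KO* samples were the higher ones, again without overlap. The log2 fold change was 0.09 (95% interval 0.01 to 0.17, limma adjusted p = 0.112).

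The ratio of these 2 axoneme genes within a library, like that of the tetraspanins, does not depend on scaling. *Rp1* exceeded *Rp1l1* by a factor of 2.384, 2.379 and 2.314 in WT and of 2.088, 1.998 and 2.059 in *Mll1KO*. The ratio was lower in every *Mll1KO* sample than in any WT sample, with means of 2.359 ± 0.039 (SD, n = 3) and 2.049 ± 0.046 (SD, n = 3). The log2 ratio differed by -0.203 (two-sided exact permutation p = 0.1, and no lower p is possible with 3 against 3 samples).

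*Tulp1* and *Reep6* act in the traffic of membrane and proteins towards the outer segment. *Tulp1*, a tubby-like protein needed for protein transport to the outer segment, lies at chr17:28351515-28365222 on the minus strand. It was at 224.5, 212.1 and 210.5 RPKM in WT and at 226.3, 232.5 and 234.2 RPKM in *Mll1KO*. WT sample a lay just below the lowest *Mll1KO* value, so that the genotypes did not overlap. The log2 fold change was 0.10 (95% interval 0.00 to 0.19, limma adjusted p = 0.124). *Reep6*, a shaper of the endoplasmic reticulum in rods, lies at chr10:80329953-80336441 on the plus strand. Its level was 573.5, 460.9 and 457.7 RPKM in WT and 561.4, 632.1 and 591.3 RPKM in *Mll1KO*. WT sample a stood apart from the other WT samples and lay above *Mll1KO* sample a, so that the genotypes overlapped. With all samples *Reep6* was not called (log2 fold change 0.26, 95% interval 0.07 to 0.46, limma adjusted p = 0.0539). Without WT sample a the log2 fold change was 0.37 and *Reep6* was called (adjusted p = 0.00431, in a range of 0.00431 to 0.802 over all alternatives). With all samples it was also called higher by limma-voom and with TMM, RLE or upper-quartile factors, but not when scaled to rod genes.

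With libraries scaled to their total, 4 of the 10 members were called higher in *Mll1KO*, compared with 8.81% of all genes. None was called lower by limma, compared with 14.5% of all genes, while limma-voom called *Rp1*. At an unadjusted p under 0.05, 8 of the 10 were higher and *Rp1* lower, compared with 4186 of the 11339 genes in either direction. In all, 23.3% of genes, 2643, were called in either direction (1704 without WT sample b and 1757 without *Mll1KO* sample c), and 37.8% of these calls were higher, compared with 51.9% of the calls with TMM factors. The values of the genotypes did not overlap in 8 of the 10 members, compared with 41.1% of all genes. The median log2 fold change of the members was 0.18, and that of all genes was -0.03. In bulk samples, fewer cells of a type and less RNA per cell cannot be told apart.

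All members are expressed in rods, and 11 of 16 other rod genes rose as well, so the libraries were also scaled to an equal level of these 16 genes. The list has no gene in common with the members. Scaling to their sum moved the median of all genes by -0.28, to -0.31, and scaling to their geometric mean moved it by -0.21, to -0.24. *Prph2*, *Rom1*, *Abca4*, *Fscn2* and *Reep6* then lay near 0, between -0.06 and 0.10 under both scalings, and were not called. *Prom1*, *Cdhr1*, *Rp1*, *Rp1l1* and *Tulp1* were called lower under both, from -0.43 for *Rp1* to -0.21 for *Cdhr1* and *Tulp1* with the rod sum. These 5 of 10 members compare with 83.8% of all genes called lower with the rod sum and 75.5% with the geometric mean. None of the members was called higher under either, compared with 1.88% and 2.76% of all genes. Relative to the median of all genes under the rod sum, *Fscn2* was higher by 0.34 and *Prph2* by 0.28, while *Rp1* was the only member below it, at -0.12.

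**Figure D2:**
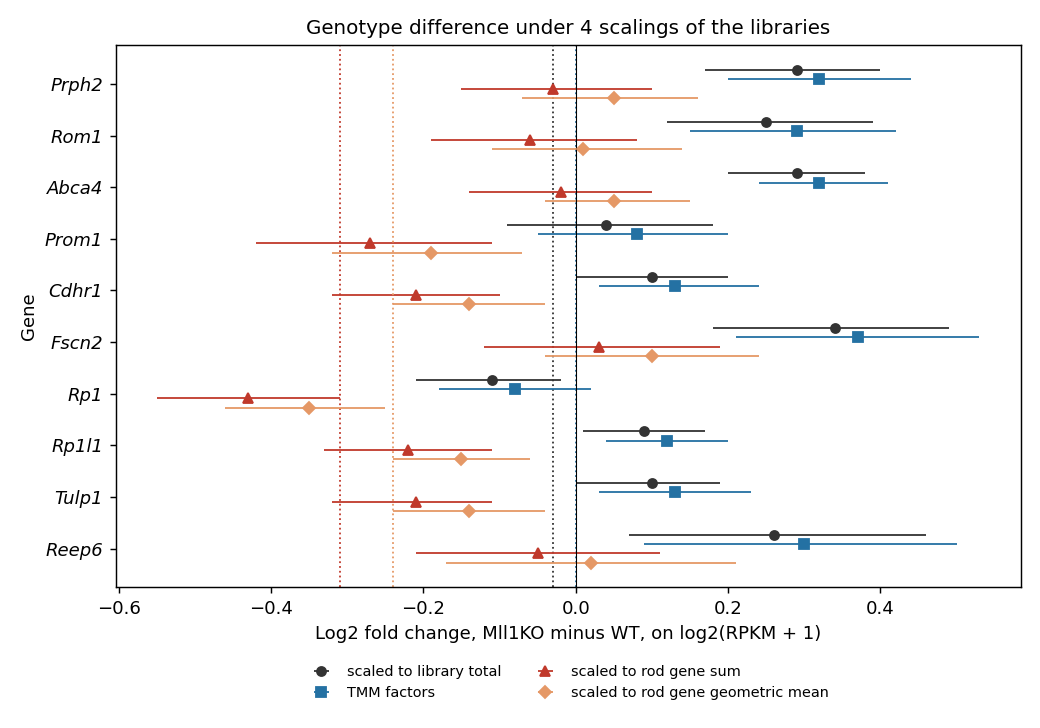
Log2 fold change of *Mll1KO* against WT on log2(RPKM + 1) (horizontal axis) for the 10 members (vertical axis) with libraries scaled to their total, by TMM factors, to the rod gene sum or to the rod gene geometric mean, with bars for the 95% interval and dotted lines for the median of all genes under each scaling. *Prph2* moves from 0.29 to -0.03 and *Rp1* from -0.11 to -0.43 between the library total and the rod gene sum.

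Within a library, a ratio to *Prph2* needs no scaling. *Rp1* amounted to 28.2%, 28.2% and 26.7% of the *Prph2* RPKM in WT and to 22%, 20% and 21% in *Mll1KO*. *Cdhr1* was at 38.7%, 36.9% and 35.0% in WT and at 33.2%, 32.4% and 31.7% in *Mll1KO*, and the genotypes again did not overlap. *Prom1*, *Rp1l1* and *Tulp1* were likewise lower relative to *Prph2* in each *Mll1KO* sample than in each WT sample. *Abca4*, by contrast, lay between 14.5% and 15.5% of *Prph2* in all 6 samples, with the genotypes overlapping, as did *Rom1*, *Fscn2* and *Reep6*. These shares were looked at after the values were known and were not tested.

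With libraries scaled to their total, 13 other genes of the disc membrane and its lipids had a higher mean in *Mll1KO*, like the disc rim genes, and 4 a lower one. Of 18 such genes 17 were in the table, and 10 rose while none fell with libraries scaled to their total, with a median log2 fold change of 0.17. Without *Mll1KO* sample b, or without c, 6 were called higher. Of all genes, 8.81% were called higher and 14.5% lower with the library total, and 83.8% and 75.5% lower with the rod sum and rod geometric mean. At an unadjusted p under 0.05, 10 were higher and 1 lower, and limma-voom called none lower. With the rod sum none was called higher and 10 lower and with the rod geometric mean 1 and 6, while the median of the list lay 0.16 and 0.17 above that of all genes. The exchanger gene *Slc24a1* was at 297.6, 272.4 and 276.7 RPKM in WT and at 365.7, 362.4 and 358.4 RPKM in *Mll1KO*. The genotypes did not overlap, and it rose by 0.36 (limma adjusted p = 0.000656). The guanylate cyclase gene *Gucy2e* rose by 0.33 (limma adjusted p = 0.000491). The list and the 16 rod genes have 4 genes in common, among them *Slc24a1*, *Cnga1* and *Cngb1*.

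The list of actin regulators and other genes of disc evagination had 18 genes, all in the table, with *Pcare* under its older symbol *BC027072*. With libraries scaled to their total 1 was higher and 7 lower, and the median log2 fold change was -0.05, with -0.10 without WT sample a and -0.02 without WT sample c. Without *Mll1KO* sample b 3 were lower, and without c 2. With the rod sum none was higher and 17 lower, and with the rod geometric mean 1 and 16. Of all genes, 8.81% were called higher and 14.5% lower with the library total, and 83.8% and 75.5% lower with these rod scalings. *BC027072*, whose product helps actin drive disc evagination, was higher by 0.35, from 66.7 ± 1.29 RPKM in WT to 85.4 ± 3.76 RPKM in *Mll1KO* (SD, n = 3; limma adjusted p = 0.000455), whereas its difference was 0.04 and not called with the rod sum, and 0.11 and called with the rod geometric mean. The myosin gene *Myo7a* had a log2 fold change of -0.42, the actin-severing cofilin gene *Cfl1* of -0.26, and the Arp2/3 complex genes *Arpc2* and *Arpc3* of -0.23 and -0.20. The cofilin gene, the most abundant of this list, lay at 226.2, 214.5 and 214.5 RPKM in WT and at 177.5, 179.9 and 191.1 RPKM in *Mll1KO*. With TMM factors 3 genes of the list were called lower. In the library total scaling, *Arpc2* and *Arpc3* were no longer called without *Mll1KO* sample b (-0.22 and -0.14) or c (-0.21 for both), nor was *Arpc3* without WT sample b (-0.17) or c (-0.19).

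Among 16 other genes of the axoneme and connecting cilium, none rose and 3 fell with libraries scaled to their total, with a median of -0.06 (-0.04 without WT sample b, -0.09 without WT sample c). At an unadjusted p under 0.05, 1 was higher and 4 lower, and limma-voom called none higher. With the rod sum 15 were called lower, and with the rod geometric mean 14. By comparison, 8.81% of all genes were called higher and 14.5% lower with the library total. With the rod sum and the rod geometric mean, 83.8% and 75.5% of all genes were called lower. *Lca5*, which encodes the ciliary protein lebercilin, was at 14.4, 14.9 and 14.4 RPKM in WT and at 10.1, 9.94 and 10.2 RPKM in *Mll1KO*. All *Mll1KO* samples were clearly lower (log2 fold change -0.49, limma adjusted p = 7.35e-05). *Rpgr*, a regulator of ciliary traffic, fell by 0.40 and *Nphp4*, a transition zone gene, by 0.21, the latter with overlapping genotypes and without a call once WT sample b (-0.17) or c (-0.20) or *Mll1KO* sample b or c (-0.18 for both) was left out. *Rpgrip1*, the most abundant of the list, had means of 273.8 RPKM in WT and 251.4 RPKM in *Mll1KO*.

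Of 21 other transport genes of the outer segment, 3 rose and 1 fell with libraries scaled to their total, and the median was -0.02, from -0.04 without WT sample c to 0.01 without *Mll1KO* sample a. Without *Mll1KO* sample b 1 was called higher and 2 lower, and without c 1 and 1. None was higher under either rod scaling, with 19 lower for the sum and 16 for the geometric mean. Of all genes, 8.81% were called higher and 14.5% lower with the library total, and 83.8% and 75.5% lower with these rod scalings. *Unc119*, a carrier of lipidated proteins, was at 461.4, 462.7 and 470.2 RPKM in WT and at 515.6, 538.0 and 535.9 RPKM in *Mll1KO*, without overlap. It rose by 0.19, as did the BBSome gene *Bbs4*, and the kinesin gene *Kif17* by 0.18. The log2(RPKM + 1) scale understates the change of *Kif17*, with means of 1.64 and 1.99 RPKM. *Kif17* was at 121.4% of its WT mean, against 114% for *Unc119*. With the rod sum, however, *Unc119* was called lower, at -0.12, and with the rod geometric mean it was at -0.05 and not called. The call of *Unc119* was lost without WT sample b (0.19) or *Mll1KO* sample b or c (0.18 for both), and that of *Kif17* without any 1 sample other than WT sample b (0.15 to 0.21). The small GTPase gene *Arf4* was lower under both scalings, with a log2 fold change of -0.27 with the library total.

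Family relatives of the members did not share a direction. Of 29 such genes 23 were in the table, of which 6 were higher and 6 lower, with a median of -0.01 (-0.03 without WT sample a, 0.00 without WT sample c). The transporters related to *Abca4* moved both ways, with *Abca8a* higher by 0.55 and *Abca8b* by 0.39, and *Abca1* at -0.46. The doublecortin-domain genes did too, with *Dcdc2a* higher by 0.36, *Dcx* at -0.46 and *Dclk2* at -0.26. *Dcdc2a* and *Dcx* had low WT means, 1.74 and 1.87 RPKM, and the log2(RPKM + 1) scale understates their changes. In *Mll1KO* they were at 145.3% and 57.94% of these means, while *Abca1* was at 69.48%. The tetraspanin gene *Tspan5* was higher by 0.32 and *Reep4* lower, at -0.31. These values are for libraries scaled to their total, where 8.81% of all genes were called higher and 14.5% lower. With the rod sum 2 of the 23 were called higher and 18 lower, and with the rod geometric mean 3 and 17. Of all genes, 83.8% and 75.5% were called lower with these rod scalings.

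The cell types of the retina differed in their markers between genotypes, all with libraries scaled to their total. Counts of markers compare with 8.81% of all genes called higher and 14.5% called lower in that scaling. Among the 16 rod genes 11 were higher and 1 lower, with a median of 0.24. Their summed level was 16818.3, 15849.7 and 16315.4 RPKM in WT and 20290.1, 20525.3 and 20041.9 RPKM in *Mll1KO*. All *Mll1KO* sums were thus above all WT sums. *Guca1b* (0.83), *Pde6a* (0.48), *Gnat1* (0.39) and *Gngt1* (0.36) were higher, and the transcription factor gene *Nr2e3* was at -0.36. Leaving out WT sample b ended the call of *Gnat1* (0.35). For the 12 cone markers 7 were higher and 1 lower, and sums were 559.2, 584.3 and 596.0 RPKM in WT and 625.4, 658.9 and 668.4 RPKM in *Mll1KO*. *Arr3* (0.66), *Opn1mw* (0.56), *Pde6c* (0.46) and *Gnat2* (0.31) were higher, *Opn1sw* was at -0.44, and *Gnb3*, the most abundant, had means of 199.3 and 197.4 RPKM. Of 10 Muller glia markers 6 were higher and 1 lower, with sums of 1457.7, 1434.6 and 1586.3 RPKM in WT and 1845.7, 1937.8 and 1899.7 RPKM in *Mll1KO*. *Glul*, the most abundant, was higher by 0.47, *Clu* by 0.68, *Aqp4* by 0.42 and *Dkk3* by 0.42, with *Vim* at -0.47. With the rod sum, 2 rod, 3 cone and 2 Muller glia genes were called higher and 5, 5 and 4 lower, and with the rod geometric mean 4, 3 and 5 were higher and 5, 5 and 4 lower.

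Markers of inner retinal neurons lay mostly lower under both scalings. Of 12 bipolar markers none was higher and 7 were lower, and the sums were 627.3, 622.1 and 607.5 RPKM in WT and 513.6, 512.2 and 526.2 RPKM in *Mll1KO*. *Vsx1* was at -0.68, *Isl1* at -0.54, *Trpm1* at -0.52 and *Otx2* at -0.35. Of 10 horizontal cell markers *Gja10* and *Lhx1* were not in the table, and 7 of the other 8 were lower, with sums of 195.2, 196.7 and 190.5 RPKM in WT and 136.6, 139.6 and 150.7 RPKM in *Mll1KO*. *Slc4a3* was at -0.70, *Onecut1* at -0.64, and *Prox1* and *Tpm3* at -0.50, and *Sept4* was the most abundant, with means of 55.5 and 41.9 RPKM. The log2(RPKM + 1) scale understates the change of *Onecut1*, with means of 2.98 and 1.55 RPKM. It was at 52.12% of its WT mean, against 60.37% for *Slc4a3*. Of 10 ganglion cell markers *Isl2* was not in the table and 7 of 9 were lower, with sums of 554.2, 513.1 and 543.8 RPKM in WT and 437.4, 388.3 and 354.5 RPKM in *Mll1KO*. *Pou4f2* was at -0.89, *Pou4f1* at -0.83, *Nefm* at -0.53 and *Sncg*, the most abundant in WT, at -0.55. The 10 amacrine markers were divided, with 2 higher and 4 lower, and sums of 608.8, 615.3 and 635.8 RPKM in WT and 562.5, 541.3 and 567.0 RPKM in *Mll1KO*. Without *Mll1KO* sample b, or with TMM, RLE or upper-quartile factors, 4 were higher and 4 lower, whereas none was higher under the rod scalings, with 7 lower for the sum and 6 for the geometric mean. *Gad1* was higher by 0.30 and *Slc6a9* by 0.24, while *Calb2*, the most abundant in WT, was at -0.50, *Gad2* at -0.49, *Pax6* at -0.34 and *Tfap2a* at -0.33.

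No bipolar, horizontal, ganglion cell or vascular marker was higher at an unadjusted p under 0.05 or by limma-voom. Under both rod scalings all genes of these 4 lists in the table were called lower, compared with 83.8% and 75.5% of all genes. Of 10 vascular markers 5 were lower, with sums of 131.2, 126.6 and 125.6 RPKM in WT and 101.5, 92.3 and 98.1 RPKM in *Mll1KO*. *Kdr*, the most abundant in WT, was at -0.73, *Cldn5* at -0.35, *Rgs5* at -0.26 and *Tie1* at -0.24, the last without a call once WT sample b (-0.23) or *Mll1KO* sample b (-0.21) was left out. Of 10 microglia markers, *Aif1*, *C1qa*, *P2ry12* and *Tmem119* were not in the table, and 1 of the other 6 was called higher, and without *Mll1KO* sample c 1 was also called lower. Under both rod scalings none was higher and 3 were lower, and without the pigment-rich samples named below none was called. Their sums overlapped, from 33.2 to 35.2 RPKM in WT and from 33.4 to 37.9 RPKM in *Mll1KO*, with *Ctss* at means of 8.76 and 8.44 RPKM. The pigment epithelium markers *Best1*, *Lrat*, *Mlana*, *Rpe65* and *Tyr* were not in the table, and none of the other 6 was called by limma or limma-voom, with 1 lower at an unadjusted p under 0.05. Without WT sample b 3 of them were called lower, and 2 without *Mll1KO* sample b. With the rod sum 3 were lower and with the rod geometric mean 2. The sums of these 6 varied within genotypes, at 223.2, 119.8 and 334.8 RPKM in WT and 107.5, 232.2 and 113.2 RPKM in *Mll1KO*, with *Ttr* most abundant. WT sample c and *Mll1KO* sample b had the highest sum of their genotype. Leaving both out, a choice made after seeing the data, left 3 members called higher, with *Rom1* at 0.25 (limma adjusted p = 0.0664). *Reep6* moved from 0.26 to 0.16, *Cdhr1* from 0.10 to 0.06 and *Prom1* from 0.04 to 0.07, all without a call. The part of these markers in the levels of the members was not tested.

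Promoters were searched because several members moved together. RefSeq windows of 250 bases before to 50 bases after a gene's start, on GRCm38.p6, matched 7 of the 10 members by symbol. Windows for *Rp1*, *Rp1l1* and *Reep6* were not used here. The 3 motifs, read on both strands, were TAATCC, the core of the CRX and OTX2 site, TGCTGA, part of the NRL site, and AAGTCA, part of the NR2E3 site. TAATCC was found in 7.06% of all 32851 windows, TGCTGA in 19.5% and AAGTCA in 15.1%. Among the members TAATCC stood in the window of *Abca4* alone, on the opposite strand and so written GGATTA here, and neither of the other motifs stood in a member's window. A match is a description of letters and not of binding. The 100 bases before the GENCODE start of the 4 members called higher are shown, with the match in capitals, read along the strand of each gene. This start can differ from the RefSeq start behind the windows, as it does for *Abca4*. They are chr17:46910359-46910458 (plus) for *Prph2*, chr19:8929357-8929456 (minus) for *Rom1*, chr3:122044343-122044442 (plus) for *Abca4* and chr11:120361434-120361533 (plus) for *Fscn2*. G and C made up 44%, 63%, 47% and 66% of these bases, in this order.
Prph2: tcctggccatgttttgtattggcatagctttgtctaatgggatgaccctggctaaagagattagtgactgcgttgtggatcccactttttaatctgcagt
Rom1: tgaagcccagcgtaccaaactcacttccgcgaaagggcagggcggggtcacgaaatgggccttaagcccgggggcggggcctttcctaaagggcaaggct
Abca4: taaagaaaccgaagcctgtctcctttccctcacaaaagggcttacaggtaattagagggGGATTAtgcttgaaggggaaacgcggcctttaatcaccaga
Fscn2: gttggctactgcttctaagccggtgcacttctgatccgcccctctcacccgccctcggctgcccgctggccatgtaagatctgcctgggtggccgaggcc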

How the data were processed

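RNA from 6 retina samples was sequenced, and samples were grouped by the genotype in their labels. The submitters' processing notes name STAR 2.0.4b, featureCounts 1.45, edgeR 3.17.9 and mm10. The authors deposited RPKM values, which divide reads by gene length and by the library total, and kept genes above a CPM filter. The authors also deposited the log2 fold change and log2 mean CPM of their own comparison, and a p-value and FDR for each gene, which were not used. Repeated lines of 59 gene IDs were dropped, 18 symbols turned into dates were restored from gene IDs, and 11323 of 11339 genes matched GENCODE vM21.

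As the unit is RPKM, limma 3.58.1 with a variance trend was used on log2(RPKM + 1), a scale that understates changes of low genes, and the authors' edgeR comparison was not repeated. The 95% intervals come from the same fit and are not adjusted. P-values measure the spread between these samples, which are not stated to be separate litters. Whole reads were recovered within 0.05 reads for 100% of genes, and limma-voom on them called 2910 genes. The annotated exon length gave whole reads for 53.4% of matched genes. For the others a length was searched that did so, and 701 genes had more than 1 possible length. Counts of samples of the same genotype differed by more than sampling noise (chi-square per degree of freedom 3.81 to 10.5). Members and lists were chosen with earlier results of these data known. Besides the members and *Kmt2a*, up to 4 genes called higher and 4 called lower per list, by size of change, and the most abundant gene of each marker list were named, and *Rpgrip1*, *Cnga1*, *Cngb1* and *Gm16401* were added after values were seen. Some genes that meet this rule are not reported here. Alternatives were pseudocounts of 0.1 and 5, a mean RPKM of at least 1, limma-voom, TMM, RLE, upper-quartile and rod gene scaling, no trend, a replicate term and leaving out samples. The fit was tested on simulated data with known log2 changes of 1 and 0.3 in size. It recovered 100% of the former and 72% of the latter, which were fitted at a median of 0.264. Smaller changes were not simulated. Calculations used R 4.3.3, Python 3.11.15, numpy 2.4.6, pandas 2.3.3 and matplotlib 3.10.9.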

Additional observations from a re-analysis of the deposited data

How the results depend on the processing

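Under the pseudocounts, the filter and the fit without trend, all 10 members kept their direction and call. Scaled to the rod sum, differences were -0.03 for *Prph2*, -0.06 for *Rom1*, -0.02 for *Abca4*, -0.27 for *Prom1*, -0.21 for *Cdhr1*, 0.03 for *Fscn2*, -0.43 for *Rp1*, -0.22 for *Rp1l1*, -0.21 for *Tulp1* and -0.05 for *Reep6*, with 0 members called higher, 5 lower and 9716 genes called. With the rod geometric mean they were 0.05 for *Prph2*, 0.01 for *Rom1*, 0.05 for *Abca4*, -0.19 for *Prom1*, -0.14 for *Cdhr1*, 0.10 for *Fscn2*, -0.35 for *Rp1*, -0.15 for *Rp1l1* and -0.14 for *Tulp1*, with 0 members higher, 5 lower and 8874 genes called. TMM, RLE and upper-quartile factors also called *Rp1l1* (0.12) and *Reep6* (0.30) higher. With TMM, 51.9% of calls were higher, compared with 37.8% in the total scaling. Limma-voom added *Rp1* (-0.11) as the 1 member called lower and *Reep6* (0.26). The cause was not tested. Leaving out 1 sample at a time gave 0.23 to 0.27 for *Rom1*, -0.02 to 0.09 for *Prom1*, 0.21 to 0.37 for *Reep6* and 1704 (without WT sample b) to 2536 genes called, with 1757 without *Mll1KO* sample c, where fewer samples were tested. Leaving out the pigment-rich WT sample c and *Mll1KO* sample b together, chosen after seeing the data, left 1662 genes called. *Rom1*, *Reep6*, *Cdhr1* and *Prom1* were then at 0.25, 0.16, 0.06 and 0.07, against 0.25, 0.26, 0.10 and 0.04 with all samples. With a term for the replicate block 2242 genes were called, against 2643, and no member's call changed; *Rp1* stayed at -0.11. Samples of the same letter did not deviate together (correlations -0.039, -0.19 and -0.007). The labels do not say whether the letters mark a shared litter or day, and these correlations cannot decide it. The *Prph2* to *Rom1* difference of log2 ratios was 0.032 and the *Rp1* to *Rp1l1* difference -0.203 with the replicate block too, and neither changed sign in any alternative run. The lowest count of a member in a library was 1221 reads, and an effect of depth on the calls was not tested.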

Other observations

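The following was chosen after the values were seen and was not tested. WT sample a, in which *Reep6* stood apart, also had the lowest *Prom1*, *Abca4*, *Prph2*, *Rom1*, *Rp1l1* and *Fscn2* RPKM of the 3 WT samples. For *Fscn2* it was at 29.2 RPKM, close to WT sample b at 29.3 RPKM. The *Reep6*, *Tulp1* and *Cdhr1* RPKM of WT sample a were the highest of the 3.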
